A study of Mus musculus with 26 samples.

Results

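The genes described here are 10 chemokine genes, listed by symbol as Ccl2, Ccl3, Ccl4, Ccl6, Ccl7, Ccl9, Ccl12, Cxcl2, Cxcl10 and Cxcl16, of the 31053 genes in the count matrices. They were followed in the 18 libraries of sorted mouse microglia among the 26 libraries of the series. All mice were wild type C57Bl/6N, and their mothers received saline or the double-stranded RNA mimic poly(I:C), a model of maternal immune activation (MIA), at E12.5. Microglia of the somatosensory (S1) cortex, with the meninges removed, were sorted on Cd11b, Cx3cr1 and Cd45 and run on the Chromium 3′ v3.1 platform. There were 3 saline and 3 MIA libraries at E13.5, 3 and 3 at E15.5, and 4 and 2 at P14. Embryonic libraries pooled embryos of both sexes. P14 libraries were labelled mixed in sex, except saline replicate 3, which was deposited as separate female and male libraries. The labels do not say that replicates came from separate litters, so p-values measure only the spread between these libraries.

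Chemokines are small secreted proteins that attract cells bearing the matching G protein-coupled receptor. In the brain, microglia and border macrophages are a main source of several of them, and many chemokine genes are induced by interferons or by NF-kB signalling. Ccl2, Ccl7 and Ccl12 attract Ccr2-bearing monocytes. Ccl3 and Ccl4 attract monocytes, macrophages and T cells, while Ccl6 and Ccl9 are rodent CC chemokines that act through Ccr1. Cxcl2 attracts neutrophils through Cxcr2, Cxcl10 attracts activated T cells through Cxcr3, and Cxcl16 is a membrane-bound ligand of Cxcr6.

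The 10 genes lie on chromosomes 11 and 5 (GRCm38). Ccl2, Ccl7 and Ccl12 belong to a cluster on the plus strand and lie between chr11:82035571 and 82103400, and Ccl9, Ccl6, Ccl3 and Ccl4 between chr11:83572919 and 83664683. Cxcl16 is at chr11:70453983-70459984 on the minus strand, Cxcl2 at chr5:90903871-90905938 on the plus strand and Cxcl10 at chr5:92346638-92348889 on the minus strand. The transcripts of no pair among the 45 pairs of the 10 genes shared a run of 31 bases. Ccl2, Ccl6, Cxcl10 and Cxcl16 overlap a gene on the opposite strand (Gm17268, E230016K23Rik, Art3 and Zmynd15, respectively).

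The 18 libraries held 67847 cells that had no fewer than 500 detected genes and no more than 20% of their unique molecular identifiers (UMIs) from mitochondrial genes, with 280 to 6375 cells and 6160925 to 105751888 UMIs per library. All 10 microglia markers were detected in every library, and cells with at least 4 of them made up 92.9 to 99.2% of each library except E15.5 MIA replicate 1, with 78.5%. That library held 18.2% cells with neuron markers, against 1.07 to 5.83% in the other embryonic libraries. E15.5 saline replicate 1 stood apart in dividing-cell markers, with a summed level of 1674 counts per 1000000 UMIs (CPM) against 478 to 689 in the other E15.5 libraries. Border macrophage markers summed to 1544 CPM in E13.5 saline replicate 1, 1682 in E13.5 MIA replicate 1 and 730 in E13.5 MIA replicate 2, and to 274 to 356 in the other 3 E13.5 libraries. Of 9 neutrophil and monocyte markers, Retnlg and Chil3 were at 0 in 18 of 18 libraries and S100a9, Ngp and Lcn2 in 17, while Ccr2 and Plac8 were above 0 in all 18. The list summed to 48.9 CPM in E13.5 MIA replicate 2 and to 5.06 to 15.2 CPM in the other 17 libraries. Some cell barcodes recurred between libraries: E13.5 MIA replicate 2 and the female P14 saline library shared 258, or 68.8% of the cells of the former. Cells whose barcode had more UMIs in another library made up 0.357 to 6.45% of a library, and 16.2% of E15.5 MIA replicate 3.

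**Figure D1:**
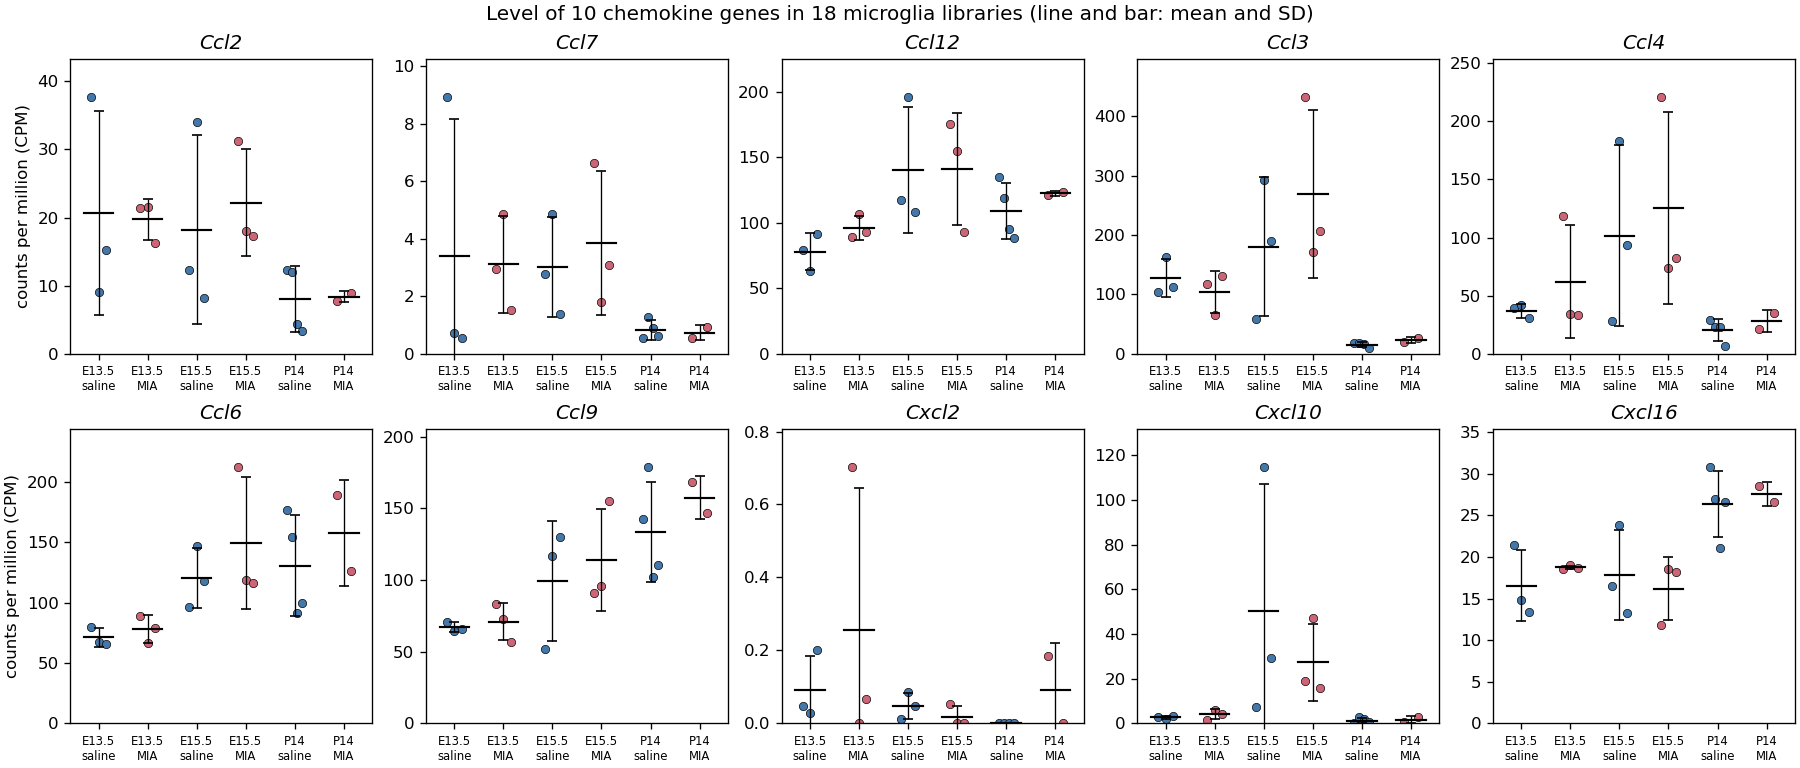
Level of the 10 chemokine genes (y axis, CPM of the summed cells of a library, linear from 0) in the 6 groups (x axis); each point is a library, and the line and bar are the group's mean and SD. Cxcl10 is above 7 CPM in the 6 E15.5 libraries alone, and the 6 P14 libraries are below every embryonic library for Ccl3.

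Ccl3 levels separated P14 from the embryonic libraries. Its level was 105, 164 and 113 CPM in the E13.5 saline libraries and 117, 64.6 and 132 in the E13.5 MIA libraries. At E15.5 it was 58.3, 293 and 190 CPM with saline and 432, 171 and 207 with MIA. At P14 it was 17.4, 18.4, 16.0 and 10.5 CPM with saline and 19.1 and 27.1 with MIA. The P14 libraries did not overlap with the embryonic ones, while E13.5 and E15.5 overlapped, with E15.5 saline replicate 1 the lowest and MIA replicate 1 the highest of all. Without the cells that share a barcode with a deeper library, the male P14 saline library went from 10.5 to 7.98 CPM and E15.5 MIA replicate 3 went from 207 to 224.

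Ccl4, the neighbour of Ccl3, had levels of 39.2, 41.9 and 30.5 CPM at E13.5 with saline and 119, 34.4 and 33.5 with MIA. At E15.5 it had 28.1, 183 and 93.2 CPM with saline and 221, 73.5 and 82.6 with MIA. At P14 it had 28.7, 23.5, 23.0 and 6.96 CPM with saline and 21.5 and 35.1 with MIA. The stages overlapped for Ccl4, since E15.5 saline replicate 1 lay within the P14 range. The high E13.5 MIA replicate 1 rested on 1 cell, which held 611 of its 844 Ccl4 UMIs.

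Cxcl10, the interferon-inducible member, was at 2.63, 1.84 and 3.50 CPM in the E13.5 saline libraries and at 1.69, 6.01 and 4.37 with MIA. At E15.5 it was at 7.25, 115 and 29.5 CPM with saline and at 19.0, 47.0 and 15.9 with MIA. At P14 it was at 0, 2.71, 1.90 and 0.437 CPM with saline and at 0.477 and 2.80 with MIA. All 6 E15.5 libraries were above all 12 others, and saline held both the lowest and the highest of the 6.

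RefSeq promoter sequences (GRCm38.p6) were matched for 6 of the 10 members, namely Ccl3, Ccl6, Ccl9, Ccl12, Cxcl2 and Cxcl10. Those of Cxcl10, Ccl12 and Ccl3 are shown because these 3 genes follow different stage patterns, as described further on. Each run is the 250 bases before the annotated start, 5′ to 3′ on the gene's strand, and capitals mark matches on either strand to GAAA and GAAA with any 2 bases between them (an interferon-stimulated response element, ISRE), GGG and TTCC with any 3 bases between them (an NF-kB motif), TGANTCA (an AP-1 motif) or TATAAA.
Cxcl10, chr5:92348890-92349139, minus strand: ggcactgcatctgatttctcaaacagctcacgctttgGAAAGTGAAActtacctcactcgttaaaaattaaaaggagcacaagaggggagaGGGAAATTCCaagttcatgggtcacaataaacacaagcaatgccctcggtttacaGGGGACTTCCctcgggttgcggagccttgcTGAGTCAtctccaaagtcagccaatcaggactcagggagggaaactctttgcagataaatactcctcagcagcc
Ccl12, chr11:82101595-82101844, plus strand: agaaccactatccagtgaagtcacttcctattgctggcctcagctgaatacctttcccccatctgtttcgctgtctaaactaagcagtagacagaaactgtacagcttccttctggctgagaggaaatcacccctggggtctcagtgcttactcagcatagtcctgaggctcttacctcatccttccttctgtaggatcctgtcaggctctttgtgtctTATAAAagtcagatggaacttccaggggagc
Ccl3, chr11:83649379-83649628, minus strand: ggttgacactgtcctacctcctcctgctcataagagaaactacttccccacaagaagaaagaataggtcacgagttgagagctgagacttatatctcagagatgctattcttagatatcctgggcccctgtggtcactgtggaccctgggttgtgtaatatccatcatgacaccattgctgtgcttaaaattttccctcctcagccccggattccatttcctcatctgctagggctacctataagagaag

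The Cxcl10 window held 1 ISRE match, 2 NF-kB matches and 1 AP-1 match. The Ccl12 window held a TATAAA match and none of the other 3, and the Ccl3 window held none of the 4. Of 32851 promoter windows of this length, 2.98% held the ISRE letters, 4.65% the NF-kB letters, 6.75% the AP-1 letters and 12.4% TATAAA. Cxcl2 had 3 NF-kB matches, of which 2 overlapped, and Ccl9 had 1 NF-kB, 1 AP-1 and 3 TATAAA matches. These are matches of letters only.

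The monocyte-attracting trio differed among themselves. Ccl2 was at 37.6, 9.07 and 15.3 CPM at E13.5 with saline and 21.4, 21.6 and 16.3 with MIA, then at 12.4, 34.0 and 8.23 at E15.5 with saline and 31.2, 18.02 and 17.3 with MIA. At P14 Ccl2 was at 12.3, 12.01, 4.40 and 3.40 CPM with saline and 7.82 and 8.98 with MIA. The stages overlapped, and the highest library was E13.5 saline replicate 1, which also had a high border macrophage marker level. The part of those cells in the Ccl2 level was not tested.

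Ccl7 had the lowest levels of the trio, from 0.540 to 8.91 CPM at E13.5 and from 1.39 to 6.64 at E15.5. At P14 it was at 0.541, 1.28, 0.912 and 0.605 CPM with saline and 0.551 and 0.922 with MIA, all below every E15.5 library. Without the cells that share a barcode with a deeper library, the female and male P14 saline libraries went from 0.912 to 0.518 CPM and from 0.605 to 0.215. Its highest E13.5 library, with 8.91 CPM, was again saline replicate 1.

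Ccl12 was at 78.9, 63.3 and 91.5 CPM at E13.5 with saline and 89.1, 106 and 92.9 with MIA. At E15.5 it was at 117, 196 and 108 CPM with saline and 175, 155 and 93.0 with MIA. At P14 it was at 135, 119, 95.5 and 88.2 CPM with saline and 121 and 124 with MIA. The ranges of all 3 stages overlapped for Ccl12.

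Ccl6 and Ccl9 had their highest levels after E13.5. Ccl6 was at 80.1, 67.7 and 65.7 CPM at E13.5 with saline and 89.0, 66.2 and 79.3 with MIA, and at 96.5, 147 and 118 at E15.5 with saline and 212, 119 and 116 with MIA. At P14 Ccl6 was at 177, 155, 91.1 and 99.4 CPM with saline and 189 and 127 with MIA, so that every E13.5 library was below every later one. Ccl9 ranged from 57.0 to 83.1 CPM at E13.5, from 51.5 to 155 at E15.5 and from 102 to 179 at P14, with E13.5 below P14 and E15.5 overlapping both.

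Cxcl16 was at 13.4 to 21.5 CPM at E13.5, 11.8 to 23.8 at E15.5 and 21.1 to 30.8 at P14. P14 overlapped with the embryonic stages only through E13.5 saline replicate 1, E15.5 saline replicate 2 and the female P14 saline library. Cxcl2, the neutrophil attractant, was at 0 to 0.703 CPM, which is 0 to 10 UMIs per library. It did not pass the low-count filter in any comparison, so 9 of the 10 members were tested.

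The stage comparisons asked how each gene changed with age within 1 treatment. Stage cannot be told apart from the sequencing depth or the day of dissociation, and in summed counts fewer cells of a type cannot be told apart from less RNA per cell. Fold changes are log2 values from edgeR's quasi-likelihood test on UMIs summed per library, with Benjamini-Hochberg adjusted p-values over all genes tested. In saline libraries, 2 members rose from E13.5 to E15.5 and none fell, where 20.6% of 13750 genes passed the threshold of 0.05 (11.6% higher, 9.05% lower). Cxcl10 rose by 4.17 ± 0.91 (log2, SE; adjusted p = 0.0168) and Ccl6 by 0.70 ± 0.17 (adjusted p = 0.0236). Ccl12 differed by 0.80 ± 0.25 (adjusted p = 0.0578), Ccl4 by 1.39 ± 0.54 (adjusted p = 0.100) and Ccl9 by 0.50 ± 0.28 (adjusted p = 0.232), none of which passed. Ccl3 at 0.44 ± 0.48, Cxcl16 at 0.07 ± 0.26, Ccl2 at -0.21 ± 0.61 and Ccl7 at -0.13 ± 0.97 had differences smaller than or close to their errors. The median over the 9 members was 0.50, beside -0.01 over all genes tested.

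The rise of Cxcl10 did not rest on its highest library, since without E15.5 saline replicate 2 it was 2.68 (adjusted p = 0.0291), but the call was lost without any of the 3 E13.5 saline libraries (adjusted p from 0.0559 to 0.0742). The Ccl6 call was kept only without E15.5 saline replicate 1 or 3, with values from 0.53 to 0.83 and adjusted p from 0.00157 to 0.106 over the 6 libraries left out. In an edgeR fit with the replicate number as a block, the Ccl6 call was also lost (adjusted p = 0.0702). Without E15.5 saline replicate 1, the library high in dividing-cell markers, 5928 genes and 6 members were called instead of 2838 and 2. The members added were Ccl3 at 0.85 (adjusted p = 0.0194), Ccl4 at 1.83 (adjusted p = 7.88e-04), Ccl9 at 0.80 (adjusted p = 4.16e-04) and Ccl12 at 0.89 (adjusted p = 0.0178).

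The MIA libraries are not those of the saline comparison. Same-numbered E15.5 libraries of the treatments deviated together, though (correlations of 0.356 to 0.553), so the comparisons are not fully independent. Among the MIA libraries, Cxcl10 was the only member past the threshold from E13.5 to E15.5. It rose by 2.79 ± 0.56 (adjusted p = 0.0251), where 10.5% of 13334 genes passed (4.59% higher, 5.86% lower). Ccl6 differed by 0.95 ± 0.26 (adjusted p = 0.0623), Ccl3 by 1.37 ± 0.42 (adjusted p = 0.0768) and Ccl9 by 0.72 ± 0.24 (adjusted p = 0.0928). Ccl4 at 1.05 ± 0.61 and Ccl12 at 0.59 ± 0.24 also had positive values that did not pass, and Ccl2 at 0.21 ± 0.25, Ccl7 at 0.41 ± 0.57 and Cxcl16 at -0.19 ± 0.21 were within their errors. Leaving out 1 library at a time, the Cxcl10 value ran from 2.13 to 3.06, and the call was kept only without E15.5 MIA replicate 1 or 3 (adjusted p from 0.00479 to 0.0932). In an edgeR fit with the replicate number as a block, the Cxcl10 call was also lost (adjusted p = 0.0534). The members' median was 0.72, beside 0.07 over all genes.

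From E15.5 to P14 in saline libraries, 4 members fell and none rose, where 49.6% of 13905 genes passed (23.9% higher, 25.7% lower). Cxcl10 fell by 5.52 ± 1.06 on the log2 scale (adjusted p = 0.00288) and Ccl3 by 3.73 ± 0.46 (adjusted p = 3.28e-04), to 0.0753 of its E15.5 level. Ccl4 fell by 2.50 ± 0.61 (adjusted p = 0.00859) and Ccl7 by 2.07 ± 0.46 (adjusted p = 0.00556). These 4 calls were kept whichever of the 7 libraries was left out, with Ccl3 between -4.15 and -3.18 and Cxcl10 between -6.20 and -4.04. Ccl2 at -1.39 ± 0.58 (adjusted p = 0.0771) and Ccl12 at -0.57 ± 0.24 (adjusted p = 0.0766) did not pass. Ccl6 at -0.09 ± 0.26, Ccl9 at 0.23 ± 0.30 and Cxcl16 at 0.35 ± 0.22 lay near 0.

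With MIA, 4 members likewise fell from E15.5 to P14, where 17.7% of 14347 genes passed (7.83% higher, 9.9% lower). Ccl3 fell by 3.68 ± 0.48 (adjusted p = 0.0114), Cxcl10 by 4.21 ± 0.93 (adjusted p = 0.0347), Ccl4 by 2.28 ± 0.56 (adjusted p = 0.0456) and Ccl2 by 1.54 ± 0.30 (adjusted p = 0.0271). Ccl7 differed by -2.51 ± 0.67 (adjusted p = 0.0543) and Cxcl16 by 0.62 ± 0.25 (adjusted p = 0.141). Ccl6 at -0.05 ± 0.33, Ccl9 at 0.32 ± 0.27 and Ccl12 at -0.35 ± 0.28 did not pass. All 4 calls were lost when either of the 2 P14 MIA libraries was left out, where 1 library then stands for its group and is assumed to vary like the others. Without E15.5 MIA replicate 2, 1 member, Ccl3, kept its call.

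**Figure D2:**
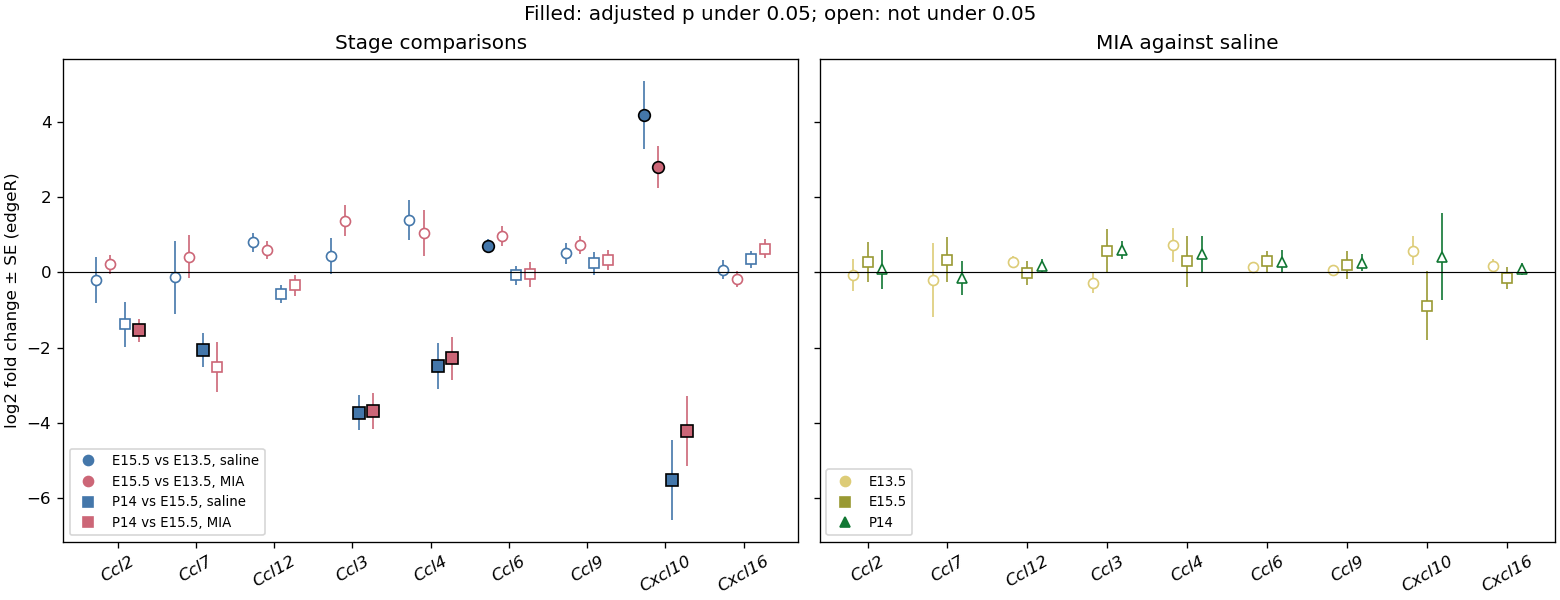
Log2 fold change with its SE (y axis) of the 9 tested members (x axis) in the comparisons of stages and of MIA with saline; filled points passed an adjusted p of 0.05 in edgeR's test and open points did not. The falls of Ccl3, Ccl4 and Cxcl10 from E15.5 to P14 stand out in both treatments, and no point is filled for MIA against saline.

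The comparison of MIA with saline asked whether the treatment of the mother changed chemokine expression in the offspring's microglia 1 day, 3 days or longer after the injection. No member passed the threshold at E13.5, E15.5 or P14. The background was 0% of 12994, 14020 and 13640 genes called by edgeR's quasi-likelihood test, with 101, 54 and 417 genes at an unadjusted p under 0.05, and 2, 0 and 1 genes called by DESeq2. At an unadjusted p under 0.05 the members counted 0, 0 and 1. In simulated counts, the edgeR test found 0 of 200 genes changed 2-fold at E15.5, so it cannot decide on changes of that size there.

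At E13.5, the values of the members ran from -0.28 ± 0.28 for Ccl3 to 0.73 ± 0.44 for Ccl4. Without MIA replicate 1, the library whose Ccl4 UMIs came mostly from 1 cell, the Ccl4 value was -0.17. Ccl12 had 0.28 ± 0.14 (unadjusted p = 0.0732, adjusted p = 1). The paper reported Ccl12 as upregulated after MIA in all E13.5 microglia. It used DESeq2 on sums split by inferred sex, with sex and sequencing batch as covariates, which differs from the test here. MIA replicates 1 and 2 held 280 and 375 cells. Without saline replicate 1, the library high in border macrophage markers, Ccl2 went from -0.08 ± 0.42 to 0.63 and Ccl7 from -0.21 ± 0.98 to 2.15, neither past the threshold. Cxcl10 at 0.57 ± 0.38, Ccl6 at 0.13 ± 0.15, Ccl9 at 0.06 ± 0.14 and Cxcl16 at 0.18 ± 0.17 lay within or near their errors.

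At E15.5, the values ran from -0.89 ± 0.91 for Cxcl10 to 0.56 ± 0.58 for Ccl3, and none exceeded its SE by much. Ccl3 and Ccl4 were highest in MIA replicate 1, at 432 and 221 CPM, the library with the most neuron-marker cells. In its microglia-marker cells alone they were at 504 and 257 CPM. That library also had summed levels of immediate early genes of 1083 CPM against 314 to 369 in the other E15.5 libraries. Its phagocytic or axon tract microglia markers summed to 2047 CPM against 409 to 743 in those libraries. Without that library, the log2 fold change of Ccl3 was 0.064 and that of Ccl4 went from 0.29 ± 0.68 to -0.38. Cxcl10 was highest in saline replicate 2, at 115 CPM, the library with the highest summed interferon-stimulated genes, at 814 CPM against 470 to 513 in the others, and without it the Cxcl10 value was 0.60. The remaining members had 0.26 ± 0.53 for Ccl2, 0.33 ± 0.60 for Ccl7, -0.01 ± 0.32 for Ccl12, 0.29 ± 0.27 for Ccl6, 0.19 ± 0.36 for Ccl9 and -0.16 ± 0.29 for Cxcl16. A list of 14 such genes, which holds no member, was below saline for 14 of 14 genes at E15.5 with a median of -0.26 and above it for 14 of 14 at E13.5 with a median of 0.89. Its sums at E15.5 were 505, 814 and 470 CPM with saline and 513, 508 and 485 with MIA, so saline replicate 2 alone lay above the MIA libraries, and no gene of it passed the threshold at either stage. At E13.5 its sum was 862 CPM in saline replicate 1, 989 in MIA replicate 1 and 848 in MIA replicate 2, the 3 libraries high in border macrophage markers, against 443 to 519 in the others, and the part of those cells in it was not tested.

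At P14, 8 of 9 members had positive values with a median of 0.25, beside 0.00 over all genes. Both libraries of saline replicate 3 were low, with the members summing to 356 and 347 CPM against 537 and 545 in the other saline libraries and 498 and 556 in the MIA libraries. They also had 2.87 and 2.56% of cells with at least 3 dividing-cell markers, against 0.0631 to 0.625% in the other P14 libraries. All dividing-cell markers tested had negative values, with a median of -1.445. In the female and male libraries of saline replicate 3, 6.45 and 5.77% of cells had a barcode with more UMIs in another library. The female library shared barcodes with E13.5 MIA replicate 2, where 64.7% of thinned cells passed the dividing-cell rule. The part of shared barcodes in the dividing cells, and of dividing cells in the member values, was not tested. With the replicate number as a block, 5 of the 8 positive values became negative, at -0.54 for Ccl2, -0.11 for Ccl6, -0.035 for Ccl9, -0.0565 for Ccl12 and -0.0734 for Cxcl16. Ccl3 was the only member whose groups did not overlap, at 19.1 and 27.1 CPM with MIA against 10.5 to 18.4 with saline, where 10.3% of 13782 genes at 1 CPM or more did not overlap. Without the cells that share a barcode with a deeper library, the Ccl3 groups overlapped, at 18.002 CPM in MIA replicate 1 and 18.5 in saline replicate 2. Its log2 fold change was 0.59 ± 0.24 (unadjusted p = 0.0377, adjusted p = 0.992), and from 0.32 to 0.81 with 1 library left out. Ccl4 had 0.48 ± 0.47, Ccl6 0.28 ± 0.31, Ccl9 0.25 ± 0.22 and Ccl12 0.18 ± 0.18. Ccl2 had 0.08 ± 0.52, Ccl7 -0.15 ± 0.46, Cxcl10 0.41 ± 1.1502 and Cxcl16 0.08 ± 0.15. At E13.5 and E15.5 no member's groups failed to overlap, beside 3.7% and 2.45% of genes. The test of whether the MIA effect differed between E15.5 and E13.5 called no member and 0% of 14408 genes by edgeR's quasi-likelihood test, with 44 genes at an unadjusted p under 0.05 and 0 called by DESeq2. The difference was 0.87 ± 0.72 for Ccl3 and -1.46 ± 1.14 for Cxcl10, and those of the other members lay within their SE.

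The share of cells with at least 1 UMI describes in how many cells a gene is seen. It also rises with the level per cell and with depth, so it cannot fully separate the 2. The median Ccl6 share at E15.5 was 9.52, 16.6 and 27.8% at 1000, 2000 and 4000 UMIs per cell. Since depth differed, each cell was thinned to 2000 UMIs and shallower cells were left out, which kept 60190 cells. Ccl3 was then detected in 10.2 to 14.8% of cells at E13.5 (median 11.8%), in 5.84 to 25.0% at E15.5 (median 13.8%) and in 1.28 to 2.29% at P14 (median 1.98%). Its unthinned medians were 31.9, 27.9 and 3.73%. For Ccl3, P14 was below every embryonic library in the share of cells as well as in CPM.

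Ccl4 was detected in 2.34 to 3.95%, 1.63 to 9.14% and 0.706 to 1.49% of thinned cells at E13.5, E15.5 and P14. Ccl2 was detected in 1.16 to 4.25%, 1.08 to 3.11% and 0.473 to 0.92%, and Ccl7 in under 1% of the cells of every library. For Ccl2 and Ccl4, every P14 library was below every embryonic one in this share, although the CPM ranges overlapped.

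Ccl6 was detected in 7.42 to 13.6% at E13.5, 15.6 to 23.3% at E15.5 and 13.3 to 25.1% at P14, and Ccl9 in 9.71 to 14.1%, 9.09 to 20.6% and 16.5 to 26.3%. Ccl12 was seen in 9.10 to 15.55%, 9.35 to 12.8% and 14.7 to 21.0% of cells. For Ccl12, the P14 share was above that of E15.5 while its CPM was not, so no order of stages is read from it. Cxcl16 was detected in 2.76 to 5.69%, 2.2002 to 4.499% and 4.08 to 5.57%.

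Cxcl10 was rare at every stage, in 0.205 to 1.08% of thinned cells at E13.5, 0.392 to 1.49% at E15.5 and 0 to 0.147% at P14. The highest share, in E15.5 saline replicate 2, had an exact (Clopper-Pearson) 95% interval of 1.07 to 2.01%. P14 saline replicate 1 had it in 0 of 5318 cells, which allows a share of up to 0.0564%, counting error only. The shares at E13.5 and E15.5 overlapped, unlike the CPM. The median over libraries of the mean Cxcl10 UMIs per positive thinned cell was 1.53 at E13.5 (1 to 4.5) and 8.57 at E15.5 (3.89 to 13.6), and these ranges overlapped through E13.5 MIA replicate 2. For Ccl3 the same medians were 1.76, 2.50 and 1.80 at the 3 stages, and for Ccl6 they were 1.22, 1.399 and 1.41.

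Free RNA can give UMIs in cells that do not express a gene. At E15.5, 1298 cells with neuron markers (median 5039.5 UMIs) had Ccl3 in 2.62%, Ccl4 in 1.54%, Ccl6 in 1.31% and Ccl12 in 1.16% after thinning. The 20337 microglia-marker cells (median 10676 UMIs) had the same genes in 15.7, 4.76, 19.4 and 12.1%. Ccl2 was in 0.154% against 1.93%, and Ccl7 in 0% (at most 0.231%) against 0.413%. Cxcl10 was in 0.308% of neuron-marker cells (4 cells, 95% interval 0.084 to 0.787) and in 0.634% of microglia-marker cells (0.530 to 0.753). These intervals cover counting error over pooled cells only. A share of cells near 0.3% was also seen in neuron-marker cells, so it is not read as expression. The neuron-marker cells were pooled over the E15.5 libraries, so these shares are no library's own background. E15.5 MIA replicate 1 weighs most in them, with 1059 neuron-marker cells before thinning against 41 to 244 in the other E15.5 libraries.

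**Figure D3:**
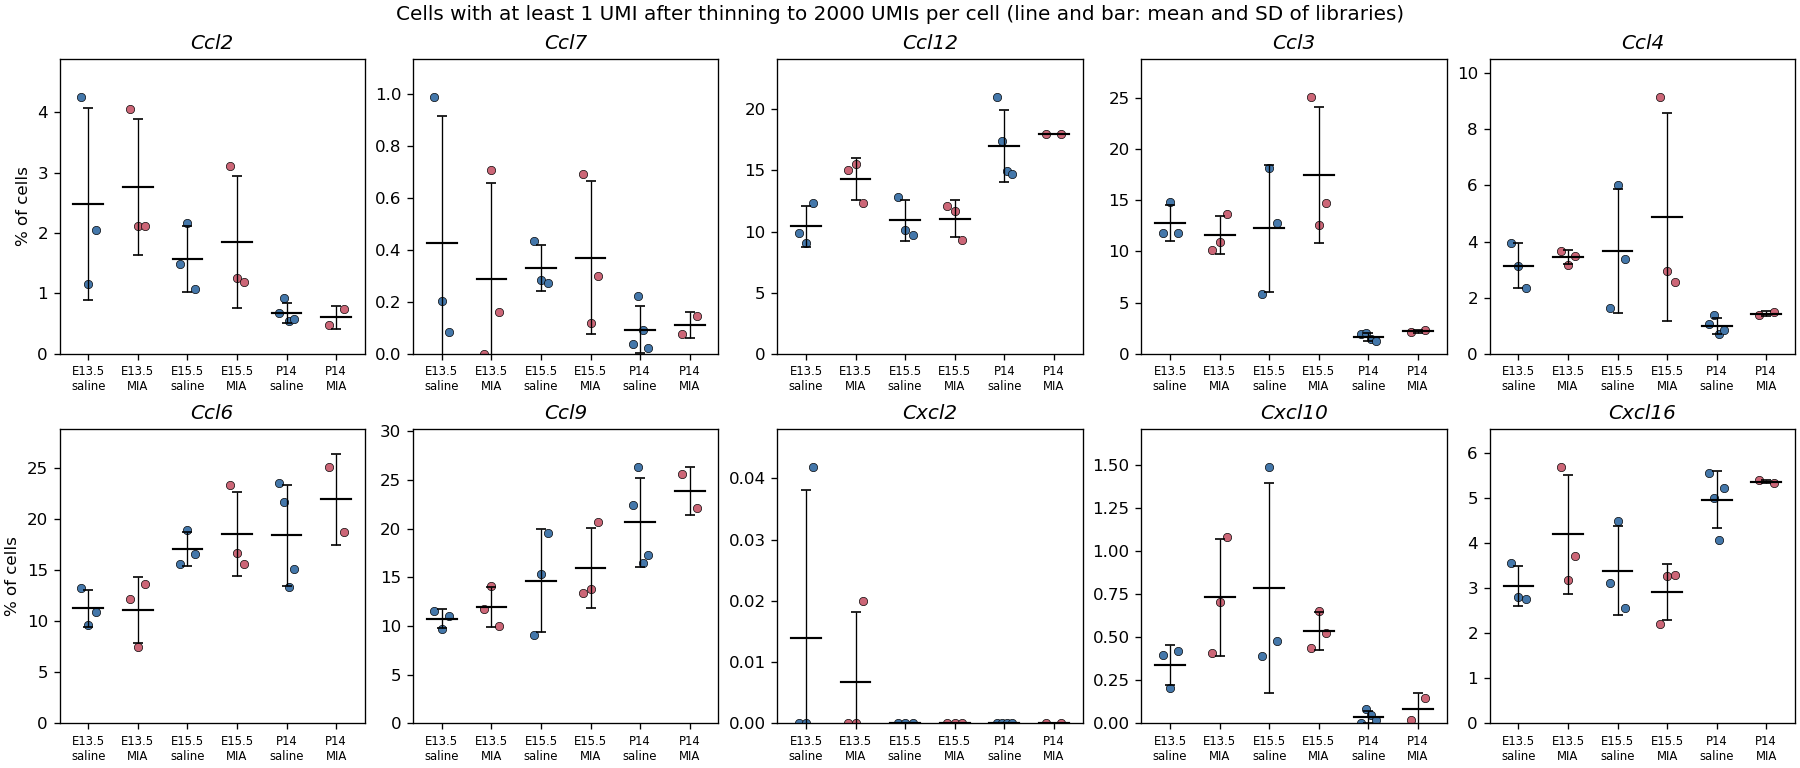
Share of cells with at least 1 UMI of each chemokine gene after thinning to 2000 UMIs per cell (y axis, %, linear from 0) in the 6 groups (x axis); each point is a library, and the line and bar are the group's mean and SD. Ccl3 drops from 5.84 to 25.0% at E15.5 to 1.28 to 2.29% at P14, while Ccl6, Ccl9 and Ccl12 are in over 13% of P14 cells.

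Many thinned cells had no UMI of any member, which also depends on depth and does not show that the transcripts were absent. At E13.5, Ccl6 alone was seen in a median of 43.2% of unthinned cells, against 11.5% after thinning. After thinning, 54.9 to 60.7% of cells at E13.5, 45.5 to 60.3% at E15.5 and 44.0 to 59.1% at P14 had no UMI of any member. Cells with 1 member made up a median of 30.6, 30.7 and 36.4% at the 3 stages, and cells with at least 3 members 2.16, 3.68 and 3.12%, with a maximum of 7.75% at E15.5.

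The members differed in how many cells carried their UMIs. In the unthinned E15.5 libraries, the 10 cells with the most Cxcl10 held 68.0 to 99.6% of its UMIs, and 1 to 7 cells held 50% of them. The 6 libraries had 562, 4049, 1249, 1079, 1760 and 263 Cxcl10 UMIs in 70, 108, 39, 63, 53 and 11 cells, saline replicates 1 to 3 first. The top cell alone held 8.92 to 62.7%. The Cxcl10 CPM of a library therefore counts few cells, and the tests above take libraries, not cells, as replicates. At P14 there were 0 to 91 Cxcl10 UMIs in 0 to 14 cells of a library.

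Ccl12 was spread differently by stage. Its top 10 cells held 9.78 to 49.1% of its UMIs at E13.5 and 21.5 to 52.4% at E15.5, but 4.00 to 9.83% at P14. The number of cells that held 50% of its UMIs was 8 to 126 at E15.5 and 312 to 517 at P14, without overlap. The highest count in 1 cell over all libraries was 796 UMIs for Ccl12, 715 for Ccl4, 511 for Cxcl10 and 449 for Ccl3.

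Ccl6 and Ccl9 had top 10 shares of 4.48 to 13.4% and 4.28 to 11.97% at E15.5 and of 3.36 to 5.44% and 2.12 to 3.33% at P14. Ccl3 had 9.19 to 27.1% at E15.5 and 23.2 to 41.2% at P14. Ccl4 and Ccl2 had 25.8 to 74.8% and 29.98 to 74.6% at E15.5. The number of cells in a library, from 280 to 6375, also sets this share, and the P14 libraries were among the larger ones. The top 1% of thinned cells held 35.4 to 58.1% of Ccl12 UMIs at E15.5 and 14.6 to 21.5% at P14. These shares were 14.2 to 18.3% and 12.7 to 19.4% for Ccl6, and 20.1 to 41.9% and 68.8 to 88.1% for Ccl3. Since only 1.28 to 2.29% of thinned P14 cells had Ccl3, its P14 share is bound to be high.

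**Figure D4:**
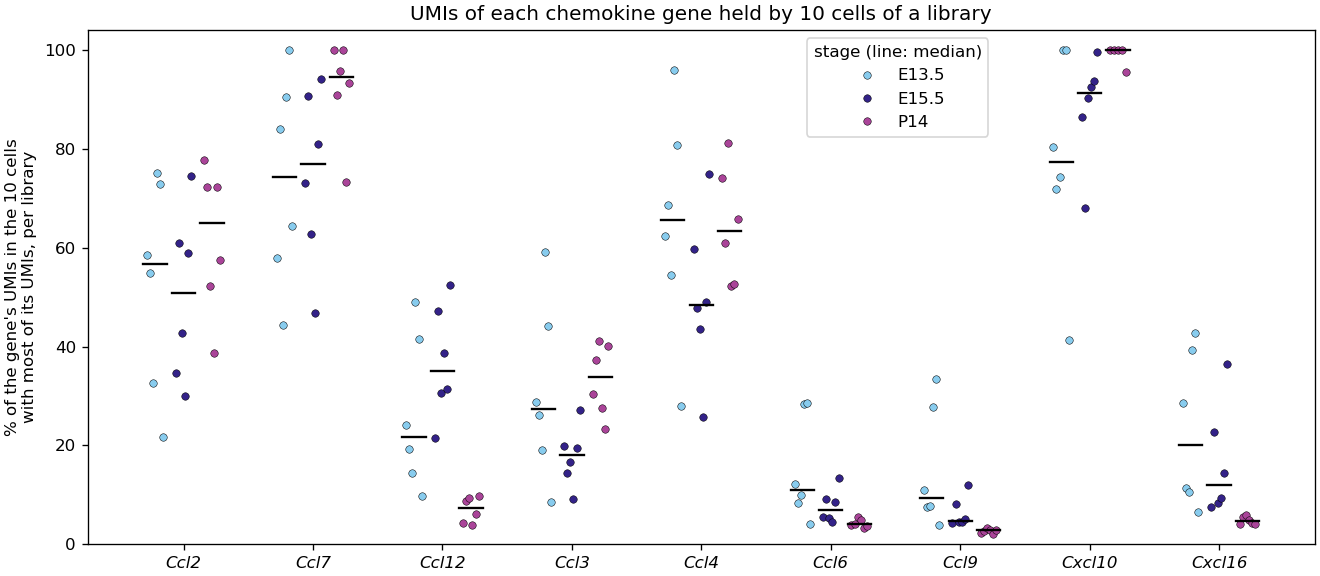
Share of a gene's UMIs held by the 10 cells with most of them (y axis, % per library, unthinned) for 9 chemokine genes (x axis); points are libraries coloured by stage, lines are stage medians, and 1 P14 library without any Cxcl10 UMI is left out for that gene. Ccl12 falls from 21.5 to 52.4% at E15.5 to 4.00 to 9.83% at P14, whereas Cxcl10 lies at 68.0 to 99.6% at E15.5.

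Chemokine genes were found together in single cells in particular pairs. For each pair and library, the number of thinned cells with both was divided by the number that their separate shares would give, where at least 5 such cells were expected. Cells of a library share depth and free RNA, so the ratios are a description. Ccl3 and Ccl4 had a median ratio of 3.43 (2.56 to 4.83, above 1 in 8 of 8 libraries), and 41.8 to 67.6% of the Ccl4 cells at E15.5 also had Ccl3. Ccl2 and Ccl12 had 2.84 (above 1 in 8 of 8) and Ccl2 and Ccl3 had 2.41 (7 of 7). No P14 library had enough expected cells for Ccl3 with Ccl4 or for Ccl2 with Ccl3, so these 2 ratios are of embryonic libraries.

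Ccl6 and Ccl9 had a median ratio of 1.37 (1.25 to 1.85, above 1 in 16 of 16 libraries), Ccl3 and Ccl9 of 1.58 (16 of 16) and Ccl3 and Ccl6 of 1.49 (16 of 16). Ccl12 was nearer to 1 with these genes, at 1.02 with Ccl3 (above 1 in 10 of 16 libraries), 1.03 with Ccl6 and 1.05 with Ccl9, but had 1.84 with Ccl4 (above 1 in 12 of 12 libraries) and 1.34 with Cxcl16 (12 of 13). Cxcl10 could be paired in few libraries, with 1.63 for Ccl3 (above 1 in 3 of 3) and 1.61 for Ccl9 (2 of 2). Its ratio was 0.755 with Ccl6 (above 1 in 1 of 3 libraries) and 2.26 with Ccl12 in 1 library.

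Cells with many transcripts of a member were described over the unthinned cells of all libraries of a stage, so deeper cells and libraries rich in a member count more. At E15.5, 70 cells held at least 10 Cxcl10 UMIs, and 68 of them (97.1%) had at least 4 of the 14 interferon-stimulated genes, against 8.70% of all E15.5 cells. Of these 70 cells, 97.1% also held Ccl12, 85.7% Ccl2, 74.3% Ccl4 and 65.7% Ccl3. All of them passed the microglia marker rule, 1.43% were called doublets and 0% had a barcode with more UMIs elsewhere. Among the 100 cells with at least 10 Ccl2 UMIs and the 454 with at least 10 Ccl12 UMIs, 54.0 and 52.9% passed the interferon-stimulated rule. Of the 23 such Cxcl16 cells, 91.3% passed it.

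High Ccl3 and Ccl4 cells often carried phagocytic markers at E15.5. Fewer did at P14, where fewer of all cells carried them too. At E15.5, 1376 cells held at least 10 Ccl3 UMIs, of which 13.2% passed the interferon-stimulated rule and 47.6% had at least 3 phagocytic or axon tract microglia markers, such as Spp1 and Gpnmb, against 13.501% of all cells. Of 418 cells with at least 10 Ccl4 UMIs, 96.7% had Ccl3 and 51.4% passed the phagocytic rule. The 669 Ccl6 and 263 Ccl9 cells of that kind passed it in 51.7 and 58.6%. The high Ccl3 cells had a median of 15903 UMIs, and E15.5 MIA replicate 1 held 24566 Ccl3 UMIs against 3429 to 10335 in the other E15.5 libraries and also the highest share of cells past the phagocytic rule, 21.98% against 8.87 to 18.5%. At P14, 91.8% of the 73 high Ccl4 cells had Ccl3 and 90.7% of the 43 high Ccl3 cells had Ccl4. Of these P14 cells, 2.74% of the high Ccl4 and 9.30% of the high Ccl3 cells passed the phagocytic rule, against 0.619% of all P14 cells. In 5 P14 libraries, 21 to 45 thinned cells passed that rule. There the share with Ccl3 had a median ratio of 9.36 to that of other cells, above 1 in 5 of 5 libraries. For Ccl4 the ratio was 7.06, above 1 in 4 of 5.

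Shares of thinned cells were also compared within each E15.5 library. Cxcl10 was detected in a median of 5.48% of cells past the interferon-stimulated rule and in 0.217% of other cells, a ratio of 24.3 (2.57 to 33.4 over libraries), and Ccl2 in 7.86 and 0.921%, a ratio of 9.92 (1.36 to 16.6). The Cxcl10 share of other cells lay below the 0.308% of neuron-marker cells, so the size of its ratio is not exact. Ccl12 had a ratio of 2.69 (26.1 against 9.68%), Cxcl16 of 3.16 and Ccl4 of 2.46 (10.2 against 2.67%, above 1 in 5 of 6 libraries), whereas Ccl3 had 1.11, Ccl9 1.12 and Ccl6 0.85. In cells past the phagocytic rule, Ccl4 had a ratio of 3.09, Ccl3 of 2.38 (29.8 against 11.8%), Ccl6 of 1.60 and Ccl9 of 1.54, each above 1 in 6 of 6 libraries, while Ccl12 had 0.66 and was above 1 in 1 of 6.

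Immediate early genes, which also respond to tissue dissociation, marked a further set. At E15.5, cells with at least 4 of them had ratios of 3.95 for Ccl4, 3.58 for Ccl7, 2.88 for Ccl2 and 1.79 for Ccl3. At P14 the ratios were 3.21 for Ccl4, 2.38 for Ccl3 and 4.31 for Ccl2, above 1 in 6 of 6 libraries. At E15.5, dividing cells had less of Ccl6 and Ccl9, with ratios of 0.72 and 0.66 that were above 1 in 0 of 6 libraries. At E13.5 these ratios were 0.81 (above 1 in 0 of 6) and 0.98 (2 of 6). In 4 P14 libraries they were 0.72 and 0.32, while Ccl3 had 5.80 and Ccl4 4.11, each above 1 in 3 of 4. These libraries held 21 to 126 such cells, most of them in the female and male saline replicate 3 libraries, with 126 and 120. In the latter, 304 and 282 cells of any class had a barcode with more UMIs in another library. The part of those cells in the P14 ratios was not tested. Border macrophage markers went with Cxcl16 at E15.5, with a ratio of 2.29 above 1 in 6 of 6 libraries. Cells past a marker rule were deeper before thinning, with library medians of 10523 to 19860 UMIs for the interferon-stimulated rule at E15.5 against 8801 to 12348 in other cells. These classes are ranges of marker counts, not cell types, and 47 to 458 cells of a library had exactly 4 of the interferon-stimulated genes while 160 to 876 were 1 gene short of the rule.

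**Figure D5:**
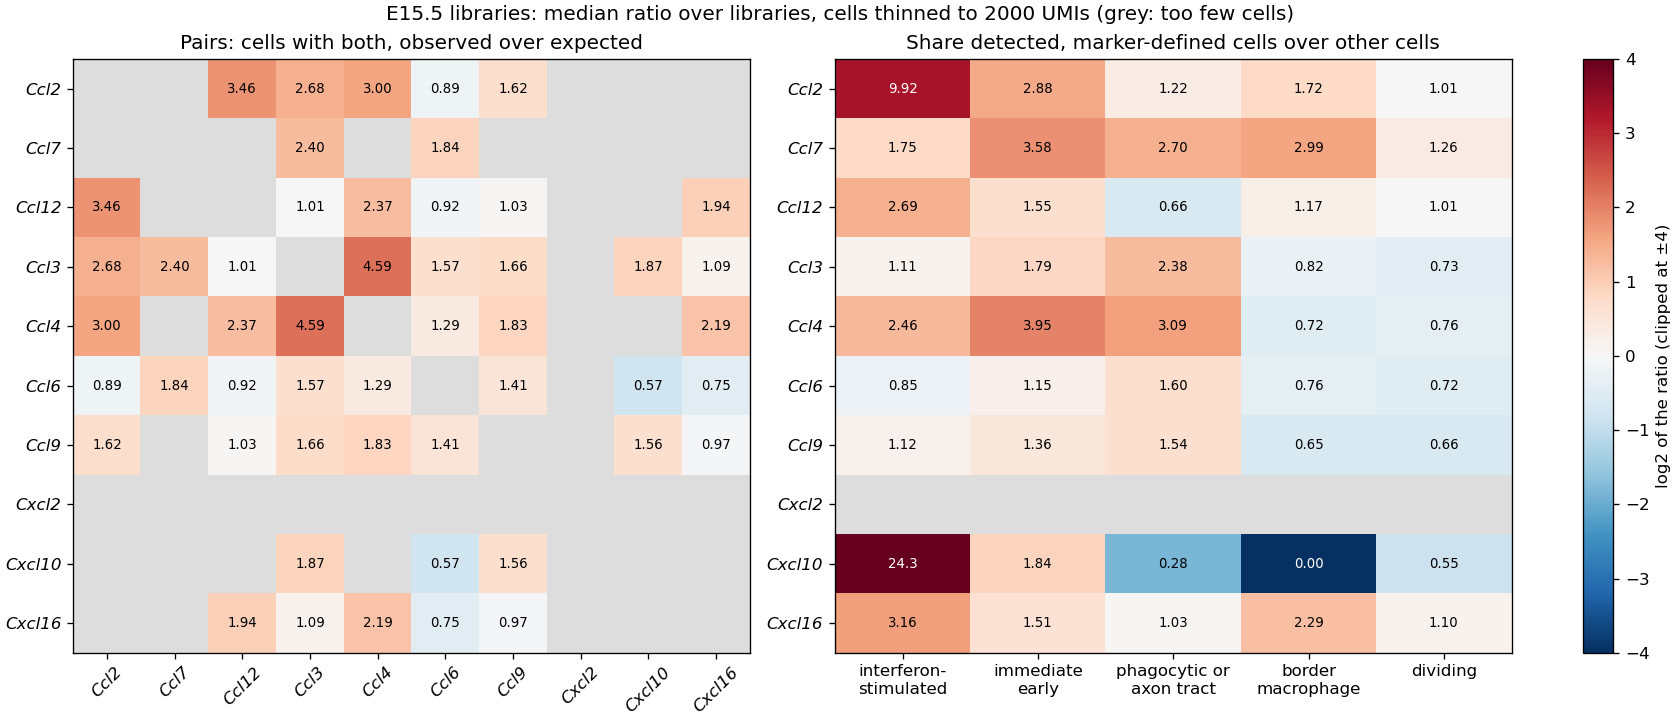
Left, median ratio over E15.5 libraries of observed to expected cells with both genes of a pair; right, median ratio of the share of cells detected in cells past each marker rule to that in other cells, with genes as rows and colour as log2 of the ratio (grey, too few cells). The largest ratios on the right are 24.3 for Cxcl10 and 9.92 for Ccl2 in interferon-stimulated cells, and on the left Ccl3 with Ccl4 stands highest. The Cxcl10 ratio is not exact, since its share in other cells, 0.217%, lay below that of neuron-marker cells.

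The other chemokine ligands and the receptors were counted from 2 further lists. Of 25 other ligands in the files, 5 to 9 were tested in a comparison, and 0 passed for MIA against saline. From E13.5 to E15.5 with saline, Ccl5 and Ccl27a passed, both higher. Ccl5, a T cell attractant, had group means of 0.0608 CPM at E13.5 and 13.9 at E15.5 with saline and 0.0378 and 22.5 with MIA, and passed in both treatments. With MIA, the interferon-inducible Cxcl9 also passed, at 0.0063 CPM at E13.5 and 4.18 at E15.5. From E15.5 to P14 with saline, Cx3cl1 (3.80) and Cxcl14 (3.27) rose, while Ccl5 (-5.12), the border macrophage and platelet chemokine Pf4 (-2.55) and Ccl24 (-0.84) fell on the log2 scale. With MIA, Cx3cl1 (3.16) and Cxcl14 (2.72) rose and Cxcl9 (-6.47), Ccl5 (-3.39) and Ccl24 (-1.12) fell, so that 2 of the tested ligands rose and 3 fell in either treatment.

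Of the 24 receptor genes, 4 of 13 tested rose from E13.5 to E15.5 with saline, among them Ackr3 (2.12), Ccr6 (2.12) and Ccrl2 (1.07), and 0 of 10 with MIA. From E15.5 to P14 with saline, 7 of 14 rose, among them Ccr3 (3.24), Ccr2 (1.95), Ccr6 (1.47) and Ackr3 (1.35), and Cxcr4 (-3.63) and Cxcr2 (-3.32) fell. With MIA, Ccr3 (3.40) and Ccr6 (1.95) rose and Cxcr2 (-3.47) and Cxcr4 (-3.17) fell, of 15 tested. No receptor passed for MIA against saline, of 9, 13 and 14 tested.

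Of the 14 interferon-stimulated genes, 4 rose from E13.5 to E15.5 with saline (Rsad2, Ifit3, Ifit2 and Irf7) and 11 fell to P14. With MIA, 0 rose and 1 fell from E13.5 to E15.5, and 1 rose and 9 fell to P14. Of 12 listed NF-kB targets and inflammatory cytokines, 2 of 11 tested rose from E13.5 to E15.5 with saline, and 3 rose and 5 fell to P14. Of 12 immediate early genes, 2 of 11 rose and then 5 rose and 2 fell. With MIA, 0 of the NF-kB list and 1 immediate early gene rose from E13.5 to E15.5, and then 3 rose and 1 fell in the former list and 1 rose and 1 fell in the latter, whose median was -1.38 beside 0.56 with saline. Border macrophage markers fell in 7 of 7 tested genes and phagocytic markers in 7 of 7 from E15.5 to P14 with saline, as did dividing-cell markers in 8 of 8. With MIA, 2 of 8 border macrophage markers, 5 of 7 phagocytic markers and 8 of 8 dividing-cell markers fell. Neuron markers rose in 8 of 8 genes from E13.5 to E15.5 with saline and in 0 of 8 with MIA (medians of 1.88 and 3.00), and fell to P14 in 8 of 8 with saline and 5 of 8 with MIA (medians of -4.56 and -5.58). Microglia markers rose in 8 of 10 genes at both steps with saline, and in 6 and 4 of 10 with MIA. Dividing-cell markers fell from E13.5 to E15.5 in 2 of 8 genes with saline and 8 of 8 with MIA. The part of these cells in the stage changes of the members was not tested.

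Genes with the most similar pattern were found by Pearson's r of log2(CPM + 1) over the 18 libraries after each stage's mean was subtracted, among 9531 genes. The libraries share sort and depth differences, so these values are a description. Ccl3 was nearest to Csf1, the growth factor of microglia (0.92), and Pld3 (0.85). Ccl6 was nearest to Pld3 (0.86) and Cadm2 (0.83), and Ccl9 to Hif1a (0.90) and the NF-kB inhibitor Tnfaip3 (0.88). Ccl2 was nearest to M6pr (0.90) and Rpl36al (0.845), Ccl4 to Dbp (0.83) and Tcn2 (0.82), Ccl7 to Sdc3 (0.83) and Phf11b (0.79), and Ccl12 to Rpp38 and Rnf130 (0.80 each). Cxcl10 was nearest to Zfp280c (0.79) and D830030K20Rik (0.77), Cxcl16 to Ercc3 (0.79) and Upf2 (0.77), and the barely detected Cxcl2 to Tctn1 (0.81) and Cul9 (0.78). Among the members themselves, the values were 0.79 for Ccl3 with Ccl4 and 0.71 for Ccl2 with Ccl7 and with Ccl12.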

How the data were processed

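The authors deposited, per library, a matrix of raw UMI counts per gene and cell. Reads had been aligned to mm10, and the submitters' processing notes name Cell Ranger 3.1.0. Barcodes under 500 genes or over 20% mitochondrial UMIs were dropped, and each library's counts were summed over its cells, so that total depth ran from 6160925 to 105751888 UMIs. Sums were tested in R 4.3.3 with the quasi-likelihood test of edgeR 4.0.16, after TMM scaling and a filterByExpr low-count filter, and p-values were adjusted by Benjamini-Hochberg over all genes tested (threshold 0.05). DESeq2 1.42.0 was an alternative and was the study's own tool, with inferred sex and sequencing batch as covariates, which were not used here. CPM are UMIs per 1000000 UMIs of a library. For shares of cells, cells were thinned to 2000 UMIs with a fixed seed in Python 3.11.15 (numpy 2.4.6, scipy 1.17.1), and doublets were scored with scanpy 1.11.5 for an alternative only and otherwise kept. Scripts were checked on counts simulated from these libraries, with 200 genes changed 2-fold. For MIA against saline, edgeR found 124 of them at E13.5, 0 at E15.5 and 128 at P14. It found 2 for the difference of MIA effects and 0 for P14 against E15.5 with MIA. With a 4-fold change it found 147 for MIA against saline at E15.5. Intervals (95%, Clopper-Pearson) and the upper limit of a count of 0 (3 counts) cover counting error only.

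The 10 members and all gene lists were chosen with earlier results of these data known. All members are named in every comparison. Other ligands and receptors past the threshold are named up to the 4 largest changes in each direction and list, as are the 2 genes with the highest r to each member at a mean of at least 5 CPM (pseudocount 1). A gene of the receptor list is counted but not reported here by name. Replicate numbers recur between groups. Same-numbered E15.5 saline and MIA libraries deviated together (correlations of 0.356 to 0.553 in 3 pairs) and count as paired. The P14 libraries of replicates 1 and 2 had 0.204 and 0.290, but the check cannot decide on pairing there. The deviations of 2 MIA libraries from their mean are mirror images, so the unlike numbers had to give -0.204 and -0.290. P14 saline replicate 3 has no MIA partner. Values are given from the fit without a block, so the E15.5 values, their SE and p-values do not use the pairing. A fit blocked on the replicate number called no gene at E15.5 or P14 either. Alternatives were DESeq2, RLE scaling, no low-count filter, the replicate block, microglia-marker cells only, a stricter cell filter, doublets removed, the 2 P14 libraries of saline replicate 3 summed, each library left out, and other thinning depths. Leaving out the cells shared with a deeper library was added after seeing the data. The nuclei libraries of the series were not used here.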

Additional observations from a re-analysis of the deposited data

How the results depend on the processing

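Of the member values past the threshold, 90 of 92 kept their direction and their call under the settings other than leaving out a library. The 2 that lost the call did so with the replicate block: Ccl6 from E13.5 to E15.5 with saline (adjusted p = 0.0702) and Cxcl10 with MIA (adjusted p = 0.0534). Of the values not past it, 472 kept their side, 16 passed under another setting and 14 changed sign. DESeq2 called Ccl12 in both saline stage comparisons (adjusted p = 0.0124 and 0.0381). Numbers of genes called: MIA against saline gave 2 at E13.5 and 1 at P14 with DESeq2, and 1 at E13.5 with the replicate block. E15.5 against E13.5 gave 1749 with the replicate block for saline (1 member), and for MIA 2823 with DESeq2 (4 members), 0 with the replicate block (0 members) and 2 members in microglia-marker cells. P14 against E15.5 with MIA gave 4179 with DESeq2 and 5451 with the replicate block (8 members). The pairing of numbers was not borne out for these stages (correlations of -0.614 to 0.310) nor fully at E13.5 (0.0949 to 0.469), and the cause of the differences was not tested.

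With 1 library left out, calls ranged from 0 to 4 for MIA at E13.5, 909 to 5928 for E15.5 against E13.5 with saline (0 to 6 members, both highest without E15.5 saline replicate 1), 5648 to 7281 for P14 against E15.5 with saline (4 to 6 members), 114 to 2914 for E15.5 against E13.5 with MIA (0 to 3 members) and 0 to 5321 for P14 against E15.5 with MIA (0 to 6 members). Of called member values 44 kept the call and 22 lost it, and of the others 15 passed the threshold and 55 changed sign.

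Log2 values that changed sign, none of them past the threshold in the report, were as follows. With the replicate block, E13.5 MIA gave 0.12 for Ccl2 and 0.82 for Ccl7, and P14 MIA gave -0.54 for Ccl2, -0.11 for Ccl6, -0.035 for Ccl9, -0.0565 for Ccl12 and -0.0734 for Cxcl16. The block also gave 0.68 for Ccl7 from E13.5 to E15.5 with saline and -0.52 for Ccl7 in the difference of MIA effects. The stricter cell filter gave -0.0318 for Cxcl10 at E13.5 MIA, microglia-marker cells 0.10 for Ccl12 at E15.5 MIA, and cells without shared barcodes 0.13 for Ccl7 at P14 MIA. Summing the 2 libraries of P14 saline replicate 3 gave -0.14 for Ccl2 (MIA) and 0.0537 for Ccl6 (P14 against E15.5 with saline).

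With 1 library left out, E13.5 MIA values ran from -0.44 to 0.63 for Ccl2, -0.17 to 1.05 for Ccl4, -0.75 to 2.15 for Ccl7 and -0.10 to 0.19 for Ccl9. E15.5 MIA values ran from -0.12 to 1.08 for Ccl2, -0.38 to 1.05 for Ccl4, -0.0454 to 0.46 for Ccl6, -0.34 to 0.85 for Ccl7, -0.11 to 0.38 for Ccl9, -0.21 to 0.31 for Ccl12, -1.57 to 0.60 for Cxcl10 and -0.38 to 0.11 for Cxcl16. P14 MIA values ran from -0.19 to 0.39 for Ccl2, -0.0421 to 0.55 for Ccl6, -0.56 to 0.16 for Ccl7, -1.36 to 1.16 for Cxcl10 and -0.0175 to 0.19 for Cxcl16. The difference of MIA effects ran from -0.37 to 1.18 for Ccl2, -1.11 to 0.43 for Ccl4, -0.17 to 0.35 for Ccl6, -1.83 to 1.05 for Ccl7, -0.17 to 0.35 for Ccl9, -0.46 to 0.047 for Ccl12 and -2.15 to 0.0139 for Cxcl10. From E13.5 to E15.5 the saline values ran from -1.01 to 0.51 for Ccl2, -0.12 to 0.85 for Ccl3, -0.65 to 2.19 for Ccl7 and -0.19 to 0.27 for Cxcl16, and the MIA values from -0.12 to 0.36 for Ccl2 and -0.24 to 0.77 for Ccl7. From E15.5 to P14 they ran from -0.37 to 0.24 for Ccl6 with MIA, and with saline from -0.30 to 0.0737 for Ccl6 and -0.06 to 0.43 for Ccl9.

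At 1000 UMIs per cell, 0 members instead of 4 reached a median of 10% of cells at E15.5, because fewer UMIs are kept. Shares of cells moved by more than their SD in 17 of 30 at 1000 UMIs and 24 of 30 at 4000, and in 0 of 30 in microglia-marker cells or without shared cells. Few counts limit the precision of Cxcl2, Ccl7 and the P14 values of Cxcl10.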
